A study of Rattus norvegicus with 24 samples.

Results

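A set of 9 classical interferon-induced genes (Isg15, Irf7, Usp18, Ifi44, Oas1a, Mx1, Mx2, Rsad2 and Irf1) was followed in rat kidney. They were taken by name: every probe set whose only gene symbol was one of these 9 was used, which gave 10 of the 31142 probe sets on the RAE230A and RAE230B arrays, with 2 for Mx2 and 1 for each other gene. Of the 10, 7 passed the filter on low signal and entered the tests, among 21799 probe sets for 11218 genes. Mx1 and both probe sets of Mx2 lay under the filter and are given as values. Isg15 and Ifi44 were measured on RAE230B and the other genes on RAE230A.

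The samples were left kidneys of male SS/jr rats, the inbred Dahl salt-sensitive strain called S, and of its congenic substrains ET3x1 and ET3x2. From general knowledge of these strains, the congenics carry alleles of the Dahl salt-resistant strain on the S background around the endothelin 3 gene on chromosome 3. All rats ate 0.4% NaCl until 39 to 41 days of age and 2% NaCl for the next 28 days, so the salt load was common to all groups. A pool held equal amounts of RNA from 2 S rats (pools A, B, C and D), 3 ET3x1 rats (E, F, G and H) or 3 ET3x2 rats (I, J, K and L), and each of the 12 pools was hybridised once to each array. None of the 9 genes lies on chromosome 3: they are on chromosomes 5 (Isg15), 1 (Irf7), 4 (Usp18), 2 (Ifi44), 12 (Oas1a), 11 (Mx1 and Mx2), 6 (Rsad2) and 10 (Irf1).

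Type I interferons bind a cell surface receptor whose kinases activate transcription factors that act through a DNA motif known as the interferon-stimulated response element (ISRE). Type II interferon acts through another motif, the gamma-activated site (GAS). The proteins made in response block viral replication, modify other proteins or tune the pathway itself, and tubular, endothelial and immune cells of the kidney can all mount the response.

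The promoters of the genes, which were chosen as classical interferon-induced genes, were searched for these motifs. Whether a motif bears on the signals below was not tested. RefSeq promoters (assembly GRCr8, from 250 bases before to 50 bases after the transcription start) were given for 6 of the 9 genes, and those of Isg15, Usp18 and Mx2 were not used here. The core of the ISRE was searched on both strands as GAAA, any 2 bases and GAAA and was found in 4 of the 6 (Irf7, Ifi44, Oas1a and Rsad2), against 3.92% of 33469 promoters of the same length. A longer form, the same core followed by CT, was found in Ifi44 and Oas1a, against 0.278% of promoters. The GAS was searched as TTC, any 3 bases and GAA, which reads the same on both strands, and was found in Irf1 and Oas1a, against 8.87% of promoters. The Mx1 promoter held none of these letters in this window, which says nothing about the factors. The stretches around 1 match per gene are printed 5′ to 3′ on the strand of the gene, all of them upstream of the start, with the ISRE core (its reverse complement in Irf7, Ifi44 and Rsad2, and a pair of overlapping copies in Oas1a) or the GAS (Irf1) in capitals.
Irf7, chr1:205800043-205800132, minus strand, 109 to 20 bases before the start: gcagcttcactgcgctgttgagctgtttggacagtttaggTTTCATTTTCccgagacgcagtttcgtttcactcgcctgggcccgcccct
Ifi44, chr2:243303841-243303906, minus strand, 66 to 1 bases before the start: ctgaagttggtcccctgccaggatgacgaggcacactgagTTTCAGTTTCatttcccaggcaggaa
Oas1a, chr12:41330385-41330465, plus strand, 81 to 1 bases before the start: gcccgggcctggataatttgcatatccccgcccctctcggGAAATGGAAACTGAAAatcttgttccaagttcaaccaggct
Rsad2, chr6:48788218-48788307, minus strand, 187 to 98 bases before the start: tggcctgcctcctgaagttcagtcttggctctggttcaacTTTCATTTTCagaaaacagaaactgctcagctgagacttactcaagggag
Irf1, chr10:38417753-38417841, plus strand, 182 to 94 bases before the start: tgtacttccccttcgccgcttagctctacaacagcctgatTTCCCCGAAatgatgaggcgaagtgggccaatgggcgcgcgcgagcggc
These matches are a description of letters and not of bound sites.

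All values that follow are deposited signals on a scale read as log2. Array medians were 8.50 to 8.61 for RAE230A and 7.55 to 7.62 for RAE230B, and S pool D had the lowest median on both. Of 11 kidney marker genes on the arrays 10 were tested, among them Umod of the thick ascending limb (mean 14.39) and Slc34a1 of the proximal tubule (mean 13.87), and their mean level in pool D, -0.078, lay just below the range of the other pools, -0.060 to 0.099. The actin control probe sets, which compare the 5′ with the 3′ part of a transcript, set pools A, B and J apart on RAE230A (5′ minus 3′ signal -1.27 to -1.14, against -2.10 to -1.66 in the other 9), and pool D had the lowest value on both arrays (-2.10 and -2.11). No 2 arrays held the same values.

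Irf7, the transcription factor that amplifies type I interferon production, had signals of 10.33, 9.88, 10.00 and 11.24 in S pools A, B, C and D. Its ET3x1 pools E, F, G and H read 9.77, 10.07, 9.74 and 9.71, and its ET3x2 pools I, J, K and L read 9.83, 10.01, 9.67 and 9.92. Pool D was the highest of all 12, 0.91 above the next highest pool, A, and the groups overlapped because S pools B and C lay among the congenic pools. Pool D exceeded the mean of pools A, B and C by 1.17, or 2.25-fold, a gap that ranked 6th among the 21799 tested probe sets.

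Irf1, a transcription factor induced by interferon gamma and itself an activator of antiviral and antigen presentation genes, did not share this pattern. Its signals were 9.64, 9.59, 9.41 and 9.44 in S pools A to D, 9.65, 9.80, 9.47 and 9.59 in ET3x1 pools E to H, and 9.59, 9.60, 9.64 and 9.64 in ET3x2 pools I to L. Pool D was the 11th of 12 pools, and the 3 strains overlapped. Its gap to the mean of pools A, B and C was -0.10, and it was 0.022 when the arrays were quantile normalised.

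Isg15 encodes a ubiquitin-like protein that is conjugated to other proteins during the interferon response. Its signals were 9.22, 9.03, 9.37 and 10.90 in S pools A to D. The ET3x1 pools read 9.46, 9.51, 9.69 and 9.54, and the ET3x2 pools 9.44, 9.12, 9.41 and 9.62. Every ET3x1 pool lay above S pools A, B and C and below pool D. Pool D exceeded the mean of pools A, B and C by 1.69, or 3.23-fold, which was the largest such gap of all 21799 tested probe sets, and stood 1.20 above the next highest pool, ET3x1 pool G.

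Usp18, the protease that removes ISG15 from its targets and dampens signalling at the type I receptor, read 8.68, 8.63, 8.66 and 9.44 in S pools A to D. It read 8.76, 8.81, 8.86 and 8.87 in ET3x1 pools and 8.83, 8.60, 8.65 and 8.82 in ET3x2 pools. As with Isg15, all ET3x1 pools lay between S pools A, B and C and pool D, whereas the ET3x2 pools overlapped pools A, B and C. The gap of pool D to the mean of pools A, B and C was 0.78, or 1.71-fold, and larger than that of 99.8% of tested probe sets.

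Ifi44, an interferon-induced cytoplasmic protein, read 7.39, 7.43, 7.63 and 8.29 in S pools A to D. Its ET3x1 pools read 7.46, 7.48, 7.54 and 7.66, and its ET3x2 pools 7.36, 7.36, 7.48 and 7.47. Pool D lay 0.63 above the next highest pool, H, and pools A, B and C lay among the congenic pools. Pool D exceeded the mean of pools A, B and C by 0.81, or 1.75-fold, more than in 99.7% of tested probe sets.

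Oas1a, a double-stranded RNA sensor that makes oligoadenylates to activate RNase L, read 8.51, 8.43, 8.60 and 9.11 in S pools A to D. It read 8.44, 8.73, 8.47 and 8.47 in ET3x1 pools and 8.74, 8.60, 8.68 and 8.68 in ET3x2 pools. Pool D was the highest, 0.37 above ET3x2 pool I, and among the ET3x1 pools F stood apart from the other 3. The gap of pool D was 0.60, or 1.51-fold, and larger than that of 99.4% of tested probe sets. Rat Oas1 genes are near-identical copies, and whether this probe set also reads the others was not examined here.

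Rsad2 encodes viperin, an enzyme that makes a chain-terminating ribonucleotide. Its signals were 8.40, 8.56, 8.15 and 8.82 in S pools A to D, 8.34, 8.23, 8.38 and 8.42 in ET3x1 pools, and 8.30, 8.51, 8.52 and 8.33 in ET3x2 pools. Pool D was the highest but only 0.26 above the next pool, B, and S also held the lowest pool, C. The gap of pool D was 0.45, or 1.37-fold, larger than that of 98.0% of tested probe sets.

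Mx1 and Mx2 are dynamin-like GTPases that trap viral components in the nucleus and the cytoplasm. The Mx1 probe set read 7.0, 6.74, 6.85 and 7.95 in S pools A to D, 6.86, 6.77, 6.66 and 6.79 in ET3x1 pools, and 6.78, 6.70, 6.67 and 6.92 in ET3x2 pools. Of these only pool D exceeded the filter level of 7.52, by which RAE230A probe sets were kept on their mean over 12 pools, and it stood 0.95 above pool A. The Mx2 probe sets differed from each other. Probe set 1387283_at, whose mean of 7.51 just missed the filter, read 7.63, 7.46, 7.51 and 8.24 in S pools A to D and between 7.29 and 7.48 in the 8 congenic pools, with pool D 0.61 above pool A. Probe set 1369202_at, with a mean of 6.10, read 6.16, 6.09, 6.11 and 6.08 in the S pools and between 6.0 and 6.14 in the congenic pools, and pool D was 11th of 12. No fold is given for these 3 probe sets, since their signals lie where the unknown background would set its size.

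**Figure D1:**
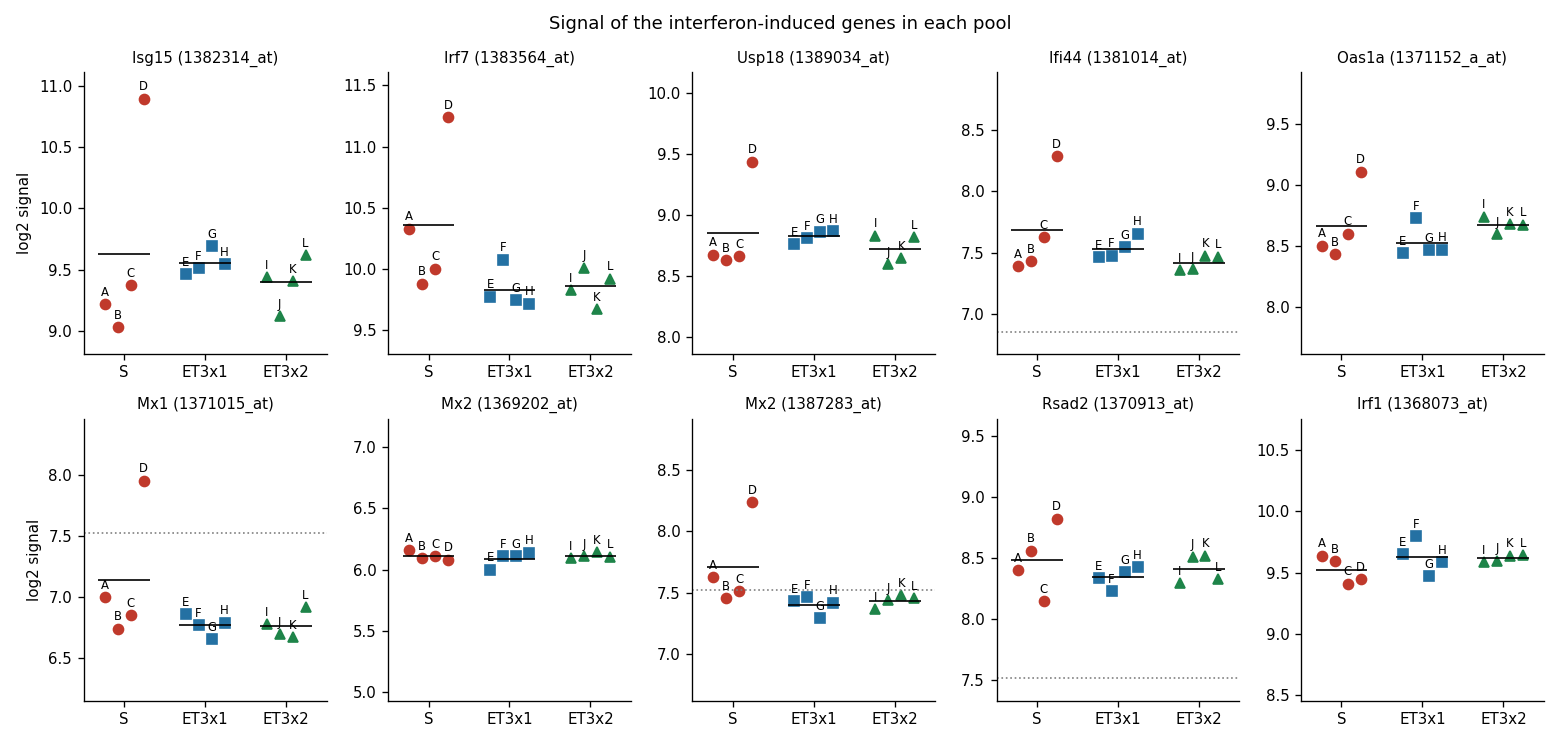
Deposited log2 signal (y axis, its own range in each panel) of the 10 probe sets in each pool, with a horizontal line at each strain's mean and a dotted line at the filter level where it falls within the panel. Isg15, Irf7, Usp18, Ifi44, Oas1a, Mx1, Rsad2 and Mx2 probe set 1387283_at have S pool D at the top, and Irf1 and Mx2 probe set 1369202_at do not.

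Pool D was thus the highest of the 12 pools in 6 of the 7 tested probe sets, against 9.56% of all tested probe sets, and in 8 of all 10. It exceeded the mean of S pools A, B and C by over 0.5 in 5 of the 7, against 1.55% of tested probe sets, and by over 1 in 2 of the 7 (Isg15 and Irf7), against 0.0596%. That share was 13 probe sets. Beside Isg15 and Irf7 it held Ifi27l2b, Azin1, Ubqln2, Pnma1, Bcl2l15, Slc45a1, Ccdc61, Nkain4 and probe sets without a gene symbol. The median gap of the 7 was 0.78, and that of 11218 genes was -0.060. With each gene centred on its mean, the mean over the 7 genes was 0.68 in pool D and between -0.14 (pool B) and 0.017 (ET3x1 pool F) in the other 11 pools. The rule for these genes names pool D, so these values describe the pool and are no test. The pattern was present on both arrays, and pool D was also the highest in 6 of 7 and 8 of 10 after quantile normalisation, under which it was highest in 15.3% of all tested probe sets. As RNA of 2 rats was pooled, a high level in 1 rat and a moderate level in both cannot be told apart.

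**Figure D2:**
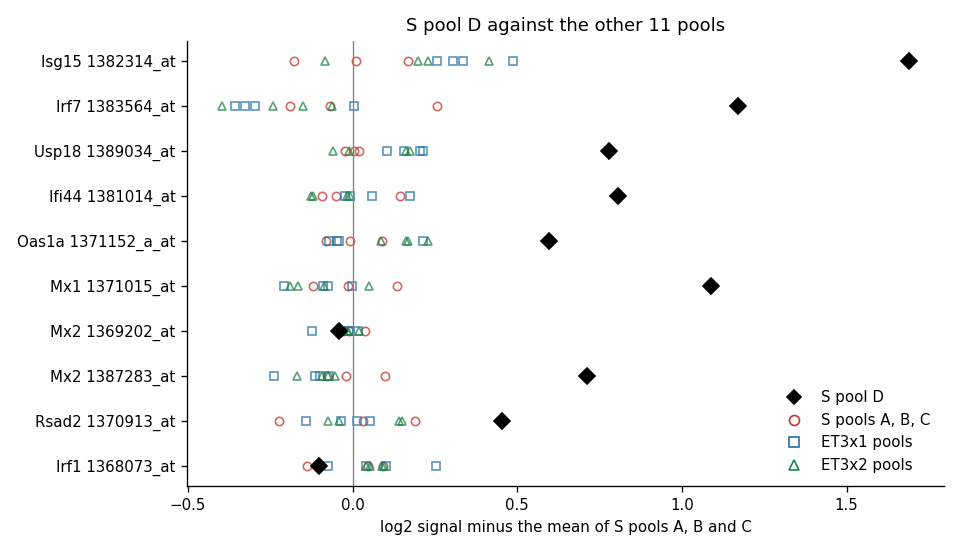
Signal of each probe set minus the mean of S pools A, B and C (x axis, log2), with S pool D as filled diamonds and the other 11 pools as open symbols by strain. Pool D lies to the right of all other pools in 8 of 10 rows, 1.20 beyond the next pool for Isg15 and 0.91 for Irf7, and within the cloud for Irf1 and Mx2 probe set 1369202_at.

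The members differed in how closely their pools followed the mean of the set. The Pearson correlation of each tested gene with the mean of the 7, which contains that gene, was 0.95 for Isg15, 0.94 for Usp18, 0.92 for Ifi44, 0.90 for Irf7, 0.84 for Oas1a, 0.66 for Rsad2 and -0.33 for Irf1 over 12 pools. Without pool D, over 11 pools, it was 0.71 for Isg15, 0.68 for Usp18, 0.51 for Irf1, 0.47 for Oas1a, 0.16 for Ifi44, 0.13 for Irf7 and -0.41 for Rsad2. Isg15 and Usp18 had the highest values in both, and the order of the others changed. The mean was taken over values centred but not scaled, so genes with a wider spread weigh more in it. For likeness, each of the 11218 genes was read from its tested probe set with the highest correlation. The genes most like the members' mean across 12 pools were Blcap (0.96), Car4 (0.95), Rbak (0.95), Chst12 (0.94), Jade1 (0.94) and Metap1d (0.94). Across the 11 pools without D they were Uba3 (0.93), Fstl3 (0.91), Myorg (0.90), Nat8f3 (0.88), Acer3 (0.88) and Cwc27 (0.88), with no gene in common. The first list therefore rests on pool D, and these correlations are over pools that share their arrays across genes.

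Whether the R alleles in ET3x1 changed the expression of these genes was asked by setting the ET3x1 pools against the S pools. None of the 7 tested genes differed between ET3x1 and S (limma, smallest adjusted p = 0.315, for Irf7), in a comparison that called 0.440% of all tested probe sets. Irf7 alone had an unadjusted p under 0.05, against 11.8% of tested probe sets: its mean was 10.36 ± 0.61 (SD, n = 4) in S and 9.83 ± 0.17 in ET3x1, a difference of -0.54 (SE 0.22). In no gene were all ET3x1 pools above all S pools or all below, against 4.41% and 1.99% of tested probe sets. Differences were negative in 6 of the 7, with a median of -0.14 against 0.00078 over all genes.

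The S mean and its spread depended on pool D. For Isg15 the mean in S was 9.63 ± 0.86 (SD, n = 4) with pool D and 9.21 ± 0.17 (n = 3) without it, and the ET3x1 mean was 9.55 ± 0.10. The ET3x1 minus S difference of Isg15 went from -0.077 (SE 0.30) to 0.35 (SE 0.11, adjusted p = 0.160, 0.160 to 0.983 over all alternatives). That of Usp18 went from -0.025 (SE 0.14) to 0.17 (SE 0.075, adjusted p = 0.273, 0.273 to 0.995). These were the only members with an unadjusted p under 0.05 without pool D, against 17.4% of tested probe sets, and the only ones in which all ET3x1 pools lay above all S pools, against 6.29%, while none had all ET3x1 pools below, against 6.63%. Without pool D 0.353% of tested probe sets were called, again none of the members. Leaving out pools A, B and J left S with pools C and D alone. There 0.537% were called, with none of the members and a median difference of -0.33. Without pool D the median difference of the 7 was 0.051, against -0.011 over all genes.

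Of the other members, Irf7 kept its direction. Without pool D the ET3x1 minus S difference of Irf7 was -0.24 (SE 0.12, adjusted p = 0.325, 0.180 to 0.535 over all alternatives). Ifi44 went from -0.15 (SE 0.15) to 0.051 (SE 0.071) and Oas1a from -0.14 (SE 0.12) to 0.014 (SE 0.082). Rsad2 went from -0.14 (SE 0.12) to -0.027 (SE 0.098), and Irf1 from 0.11 (SE 0.083) to 0.081 (SE 0.088). With no filter on low signal, neither Mx1 (-0.37, adjusted p = 0.460) nor the Mx2 probe sets 1387283_at (-0.31, adjusted p = 0.369) and 1369202_at (-0.022, adjusted p = 0.876) passed the test against S.

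The same question for ET3x2 used the same S pools, so the 2 comparisons are not independent. None of the 7 tested genes differed between ET3x2 and S (limma, smallest adjusted p = 0.403, for Irf7). In that comparison 0.344% of all tested probe sets were called. None differed without pools A, B and J, where S again held pools C and D alone. There 0.0780% were called and the median difference of the 7 was -0.28. With all pools, Irf7 was again the only one with an unadjusted p under 0.05, against 10.9% of tested probe sets. Its mean was 9.86 ± 0.14 (SD, n = 4) in ET3x2, a difference of -0.51 (SE 0.22). No gene had all ET3x2 pools above all S pools or all below, against 3.87% and 2.09%. Differences were negative in 5 of the 7, and their median was -0.13 against 0.034 over all genes.

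Without pool D the ET3x2 minus S difference went from -0.23 (SE 0.30) to 0.19 (SE 0.11) for Isg15, from -0.13 (SE 0.14) to 0.066 (SE 0.075) for Usp18 and from -0.069 (SE 0.12) to 0.044 (SE 0.098) for Rsad2. It stayed negative for Irf7, at -0.21 (SE 0.12), and for Ifi44, at -0.067 (SE 0.071) after -0.27 (SE 0.15). It stayed positive for Oas1a, at 0.16 (SE 0.082) after 0.013 (SE 0.12), and for Irf1, at 0.069 (SE 0.088) after 0.095 (SE 0.083). None passed the test, none had an unadjusted p under 0.05 and no gene's groups were apart, where 0.766% of tested probe sets were called, 15.5% had such a p, and 6.91% and 6.85% lay apart above and below. The median of the 7 was 0.066, against 0.024 over all genes.

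**Figure D3:**
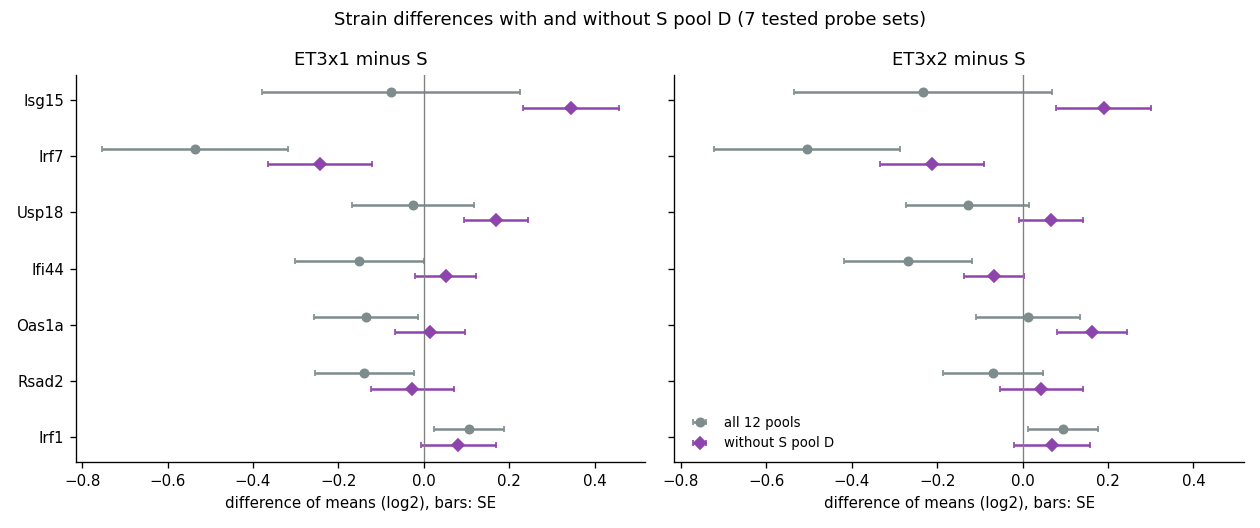
Difference of strain means (x axis, log2, bars: standard error from limma) for the 7 tested genes, ET3x1 minus S on the left and ET3x2 minus S on the right, from all 12 pools (circles) and without S pool D (diamonds). Leaving out pool D moves Isg15 from -0.077 to 0.35 on the left and from -0.23 to 0.19 on the right, and shortens its bar from 0.30 to 0.11.

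The comparison of the congenic strains with each other does not contain pool D, other than through the shared spread. None of the 7 tested genes differed between ET3x2 and ET3x1 (limma, smallest adjusted p = 0.599, for Oas1a), where 1.48% of tested probe sets were called, and none had an unadjusted p under 0.05, against 13.1%. Isg15 differed by -0.16 (SE 0.30), Usp18 by -0.10, Ifi44 by -0.12 and Irf1 by -0.011. Oas1a differed by 0.15 (SE 0.12), Rsad2 by 0.071 and Irf7 by 0.031. No member's pools were apart, against 4.96% above and 4.18% below, and the median difference was -0.011, against 0.032 over all genes. With the spread estimated without pool D, the SE of Isg15 was 0.10 and that of Oas1a 0.076, and still none of the 7 passed (smallest adjusted p = 0.331, for Oas1a, whose values ranged from 0.118 to 0.790 over all alternatives), where 1.94% of tested probe sets did.

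The rest of the interferon pathway was read from lists of genes chosen by function. Of 8 ligands and receptors 6 were tested, and pool D was the highest in none of them. Ifng, interferon gamma, lay under the filter, with pool D the highest (6.45 against 6.05 to 6.38). Ifnar1 and Ifnar2, the chains of the type I receptor, had pool D gaps of 0.068 and -0.14, and Ifnb1, interferon beta, had a gap of 0.046. The gamma receptor chains Ifngr1 and Ifngr2 had gaps of -0.15 and -0.051, and Il10rb, a chain of the lambda receptor, one of 0.075. Of 12 signalling genes 11 were tested, and pool D was the highest in 2, Socs1, an inhibitor of the receptor kinases (gap 0.42), and Stat2 (gap 0.089). Irf9, a DNA-binding factor of the type I response, had a gap of 0.077 and Socs3, another inhibitor, one of 0.041. The other 7 signalling genes had negative gaps, the largest in size being those of the transcription factors Irf2 (-0.60), Irf8 (-0.22, pool D the lowest of 12) and Irf3 (-0.19). Of 10 sensors 6 were tested, and pool D was highest in 2, the RIG-I-like receptor Dhx58 (gap 0.50) and the nucleic acid sensor Zbp1 (gap 0.26), while the adaptors Sting1 and Mavs had gaps of 0.19 and -0.072, and the kinase Tbk1 had the lowest gap of the list, -0.52. The sensor Tlr7 lay under the filter, with pool D the lowest (5.48 against 5.54 to 5.75). The sensor Rigi was not analysed here.

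Pool D stood out more among other antiviral targets. It was the highest pool in 11 of the 25 tested genes of that list, against 8.67% of all genes taken with 1 probe set each, with a median gap of 0.15 and a negative gap in 5, the lowest in Dtx3l (-0.19). Ifi27l2b had a gap of 1.33, the 3rd largest of all tested probe sets, with a signal of 11.73 in pool D and 10.12 to 10.76 in the other pools. Ifit2, which binds viral RNA, read 9.34 in pool D against 8.12 to 8.77, the large ubiquitin ligase Rnf213 read 10.21 against 9.38 to 9.74, and Ifi27 read 13.50 against 12.84 to 13.15. The mean level of the list was 0.24 in pool D and -0.077 to 0.030 in the others. A further 6 genes of this list lay under the filter, with gaps from -0.17 to 0.33. Pool D was the highest in 2 of the 6, Ifit3 (7.38 against 6.91 to 7.10) and Oas1b (5.94 against 5.56 to 5.88). Of 16 tested targets known for interferon gamma, pool D was highest in 1, the chemokine Cxcl10 (9.44 against 8.71 to 9.11). The list's mean level in pool D, 0.068, was the highest among the S pools and lay within the range of all other pools, -0.11 to 0.13. Its gap to pools A, B and C was positive in 14 of the 16 genes and negative in 2. Igtp had the largest gap of that list, 0.68, with 8.85 in pool D and up to 8.86 elsewhere, and the proteasome activator Psme2 and the MHC class I light chain B2m had gaps of 0.27 and 0.26. The chemokine Cxcl9 had the lowest gap of that list, -0.23, with pool D the lowest of 12 pools. In 2 interferon gamma targets under the filter pool D was not the highest (gaps -0.081 and 0.028).

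**Figure D4:**
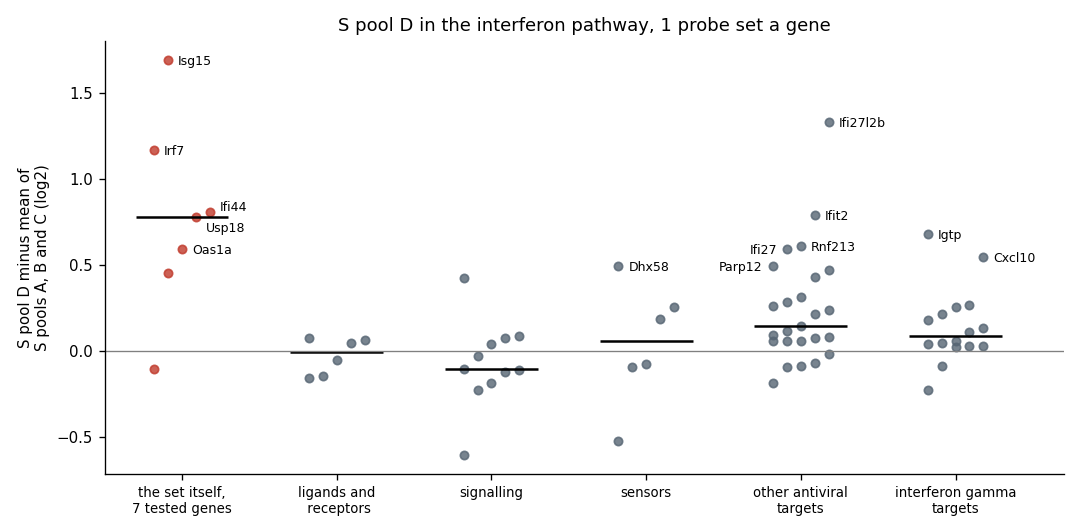
Signal in S pool D minus the mean of S pools A, B and C (y axis, log2) for each tested gene, for the set itself and for 5 lists of the interferon pathway, with a bar at each median. The medians are 0.78 for the set, -0.0024 for ligands and receptors, -0.10 for signalling, 0.058 for sensors, 0.15 for other antiviral targets and 0.087 for interferon gamma targets.

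In the strain comparisons 1 gene of these lists passed the test. Trim25, a ubiquitin ligase that acts on the RIG-I pathway, read 10.09, 9.94, 10.20 and 10.31 in S pools A to D, 10.36, 10.19, 10.38 and 10.05 in ET3x1 pools, and 9.60, 9.50, 9.41 and 9.41 in ET3x2 pools. All ET3x2 pools lay below all others. It fell by 0.65 in ET3x2 against S (SE 0.094, limma adjusted p = 0.0104) and by 0.76 against ET3x1 (SE 0.094, adjusted p = 0.000763), and it passed both without pool D (0.0189 and 0.000627). Trim25 lies on chromosome 10 and had 1 tested probe set. No gene of the lists passed in ET3x1 against S. An unadjusted p under 0.05 was found there in 3 of the 25 other antiviral targets, 3 of the 16 interferon gamma targets, 2 of the 11 signalling genes, 1 of the 6 sensors and 1 of the 6 ligands and receptors, against 11.8% of all tested probe sets. In ET3x2 against S the counts were 4, 5, 1, 1 and 1 in the same order, against 10.9%, and in ET3x2 against ET3x1 they were 5, 0, 1, 1 and 2, against 13.1%. Only without pool D did Tbk1 pass in ET3x2 against ET3x1 (difference -0.47, SE 0.095, adjusted p = 0.0239, and 0.0949 with all pools). Every pathway gene not named here missed the adjusted threshold in all 3 comparisons, with and without pool D.

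Markers of immune cells were set beside the pool D values, because in bulk kidney RNA more cells of a type and more RNA per cell cannot be told apart. The mean level of 3 tested pan-leukocyte markers in pool D was 0.032, within the range of the other pools, -0.19 to 0.13, and none of the 3 was highest in D. The 9 tested macrophage and monocyte markers had a mean of -0.086 in pool D, below the range of the others, -0.058 to 0.11, with 1 gene, C1qb, highest in D. The 6 tested T and B cell markers averaged -0.094 (others -0.099 to 0.16), and 2 natural killer cell markers 0.13 (others -0.20 to 0.29). Pool D was the highest in none of the 6 and in 1 of the 2. The 3 plasma cell markers averaged -0.40 (others -0.39 to 0.38), but all S pools were low, -0.40 to -0.29. Their mean was 0.037 to 0.38 in ET3x1 pools and 0.026 to 0.22 in ET3x2 pools. Of the 3, 1 was called higher in ET3x1 than in S and 1 in ET3x2 than in S (limma, adjusted p = 0.000516 and 0.0113). These comparisons called 0.440% and 0.344% of all tested probe sets. In ET3x1 against S 1 of the 3 differences was negative, and in ET3x2 against S none was. Of 10 tested kidney markers 1 was called higher in ET3x1 than in S (limma, adjusted p = 0.0483), though not without pool D. The lists for red cells (0.12, others -0.22 to 0.38) and for neutrophils, with 1 tested gene (-0.063, others -0.13 to 0.14), were within the range of the other pools in D, and 2 endothelial markers were below it (-0.18, others -0.13 to 0.20). Of 5 plasmacytoid dendritic cell markers 2 were tested, Tcf4 and Bst2, with a mean of 0.30 in pool D against -0.18 to 0.11, and Bst2 is itself induced by interferon. Pool D was the highest in 1 of these 2. Against S pools A, B and C alone, the median gap of pool D was 0.15 for pan-leukocyte and 0.29 for natural killer cell markers. It was 0.22 for red cell and 0.27 for plasmacytoid dendritic cell markers, and in all of these lists pool D had the highest mean of the S pools. The gap was -0.072 for macrophage and monocyte, -0.026 for T and B cell, -0.043 for plasma cell, -0.066 for neutrophil and -0.23 for endothelial markers. The median over all genes was -0.060. The part of cell composition and of the low actin 5′ signal of pool D in its interferon-induced gene levels was not tested.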

How the data were processed

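Left kidney RNA of 32 rats in 12 pools was measured on 24 Affymetrix arrays. The authors deposited 1 value per probe set and pool, read here as log2 signal from its range (RAE230A 4.97 to 15.24, RAE230B 4.10 to 13.49); summarisation, background correction and normalisation are not given in the sources used here. Per the labels, cDNA was primed with oligo(dT), which favours the 3′ end of transcripts. Each pool was 1 replicate and the labels give no batch. P-values measure the spread between these pools, and precision is limited by the 4 pools per strain. The S pools held 2 rats and the congenic pools 3, while the same estimate of the spread was used for all 3 strains.

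On both arrays 57 control probe sets were removed, together with those whose mean over 12 pools lay under the 30th percentile of the array (7.52 on RAE230A and 6.85 on RAE230B). Values were used without further scaling. Models were fitted to each array over the 3 strains with limma 3.58.1 under R 4.3.3 (lmFit, then eBayes with trend), two-sided, with Benjamini-Hochberg adjustment over all tested probe sets of an array and a threshold of 0.05. The fit was tested on simulated data. Gene symbols came from the platform's tables, updated through RefSeq (GRCr8) by gene identifier for 12748 of 12783 probe sets with 1 symbol on RAE230A and 7524 of 7564 on RAE230B. Genes outside the set were read from 1 probe set each, the tested one with the highest mean. For likeness it was the tested one with the highest correlation.

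All 10 probe sets of the 9 genes were named whether called or not. From the pathway lists, the genes with the largest pool D gaps and any called gene were named, and for likeness the 6 highest correlations. Pathway genes with the lowest gaps were named after their values were seen. The members and lists were chosen with earlier results of these data known. Alternatives left out each pool in turn, left out pools A, B and J, or changed the scaling, the filter, the array weights or the groups in the fit. Pool letters are not shared between strains.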

Additional observations from a re-analysis of the deposited data

Results flagged for a closer look

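In each strain the 4 pools of each of the 10 probe sets were examined for a pool far from the other 3, by the gap to its nearest neighbour over the whole range (Dixon's test). Of 30 such groups 3 were past it. Chance gives about 1 in 20 for a group taken alone. The groups share the same pools across genes, so this rate gives no expected count for them. Usp18 stood apart in S pool D, at 9.44. The rule for these genes names pool D, so the Usp18 value describes the pool and is no test. Irf7 stood apart in ET3x1 pool F, at 10.07, and Oas1a in the same pool, at 8.73. The Isg15 value of S pool D, with the largest gap of all tested probe sets, did not pass, with a ratio of 0.814.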

How the results depend on the processing

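None of the 7 tested genes passed the test in any comparison under any alternative that was run, with adjusted p-values from 0.160 to 0.995 for ET3x1 against S, 0.163 to 0.993 for ET3x2 against S and 0.118 to 0.998 for ET3x2 against ET3x1. The directions of single genes against S were less stable. Leaving out each pool in turn, the ET3x1 minus S difference ranged from -0.28 to 0.35 for Isg15, -0.098 to 0.17 for Usp18, -0.25 to 0.051 for Ifi44 and -0.21 to 0.014 for Oas1a, and only without S pool D did these 4 turn positive. The ET3x2 minus S difference ranged from -0.43 to 0.19 for Isg15, -0.20 to 0.066 for Usp18, -0.18 to 0.044 for Rsad2 and -0.064 to 0.16 for Oas1a. The median of the 7 differences ranged from -0.21 to 0.051 and from -0.20 to 0.066 against S, positive among these only without pool D, and array weights gave 0.028 for ET3x2. The ET3x2 minus ET3x1 difference ranged from -0.020 to 0.11 for Irf7 and -0.063 to 0.046 for Irf1. Array weights turned ET3x1 minus S to 0.16 for Isg15 and 0.084 for Usp18, ET3x2 minus S to 0.067 for Isg15 and 0.028 for Rsad2, and ET3x2 minus ET3x1 to 0.013 for Irf1. Without pools A, B and J, Oas1a in ET3x2 minus S was -0.16 and Irf7 in ET3x2 minus ET3x1 -0.020, and quantile normalisation gave -0.018 for Oas1a in ET3x2 minus S. The cause of these turns was not tested beyond the pools left out. No paired analysis was possible because pool letters are not shared between the strains. Low signal limited Mx1 and Mx2.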
